A study of Mus musculus with 4 samples.

Results

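The genes described here are 57 genes of the cell cycle and of DNA replication, taken as a list by name out of the 45706 features of the count files. All 57 have a row there, 54 under the symbol used here and 3 (Knl1, Diaph3 and Lockd) under an older one, matched by Ensembl identifier. Single nuclei were sequenced from the left dentate gyrus of young-adult male and female mice, 6 to 8 weeks old, that carried a tamoxifen-inducible Cre (CreERT2) and the reporter CAGfloxStop-Sun1/sfGFP, in which tamoxifen switches on a green nuclear-envelope tag in the cells with active Cre and in everything these cells give rise to. All mice carried both alleles and received tamoxifen, and the 4 libraries (w1, w2, w4 and w8) hold sorted nuclei collected 1, 2, 4 or 8 weeks later, each from 1 pool of 4 dentate gyri. The label therefore follows whatever cells the Cre driver marks and their progeny, and a nucleus had to be tagged and sorted to be seen. The list was divided by role into an S phase list of 25 genes, a G2/M list of 24 genes and 8 genes that belong to neither.

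A dividing cell first licenses its replication origins by loading the MCM helicase, then copies its DNA during S phase with polymerases and a supply of deoxynucleotides, and lastly separates the copies in mitosis with kinetochores, spindle motors and a contractile ring. D-type cyclins with Cdk4 and Cdk6 open the way into the cycle, E2F factors turn on the S phase genes, and the DREAM and MMB complexes hold back and then release the mitotic genes through a short promoter element called CHR. In the adult dentate gyrus radial glia-like cells (RGLs) are mostly quiescent, neural progenitor cells (NPCs) divide, neuroblasts mature into granule cells, which are postmitotic neurons, and oligodendrocyte precursor cells (OPCs) retain the ability to divide.

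The promoters of the members were read for the elements named above. RefSeq promoters (GRCm38.p6, 250 bases before to 50 bases after the start) were found for 46 of the 57 genes, 20 of the S list, 20 of the G2/M list and 6 of the others. An E2F element, searched on both strands as TTTCCCGC, TTTCGCGC, TTTGCCGC or TTTGGCGC, lay in the window of 11 of the 20 S phase genes (55.0%), of 2 of the 20 G2/M genes and of 704 of all 27025 genes (2.60%). A CHR element, searched as TTTGAA or TTCGAA, was present in 16 of the 20 G2/M genes (80.0%), in 3 of the 20 S phase genes and in 21.7% of all genes. The CCAAT box, a general promoter element, was found in 65.0% of the S phase genes, 70.0% of the G2/M genes and 41.1% of all genes. The spellings were chosen after several had been counted, a match in the letters is a description and not a binding site, and genes with several starts were scored over all their windows.

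These 4 stretches of 120 bases before the start of S phase genes are shown because they belong to the genes with most UMIs in the NPC cluster among those with an E2F element wholly before the start, and the element stands in capitals (5′ to 3′ on the strand of the gene). They lie at chrX:93632230-93632349 (minus strand) for Pola1, at chr1:128359706-128359825 (minus) for Mcm6, at chr19:38930870-38930989 (plus) for Hells and at chr5:150522397-150522516 (plus) for Brca2. Mcm6 carries 3 matches, of which the upstream pair overlaps.
Pola1: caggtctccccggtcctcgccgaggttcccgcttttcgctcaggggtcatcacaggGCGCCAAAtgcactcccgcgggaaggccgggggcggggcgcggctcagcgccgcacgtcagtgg
Mcm6: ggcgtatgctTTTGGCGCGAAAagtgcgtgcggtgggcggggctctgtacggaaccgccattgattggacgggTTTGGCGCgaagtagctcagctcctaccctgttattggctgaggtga
Hells: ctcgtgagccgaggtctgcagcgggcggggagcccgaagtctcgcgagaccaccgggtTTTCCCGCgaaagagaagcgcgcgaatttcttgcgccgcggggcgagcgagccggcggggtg
Brca2: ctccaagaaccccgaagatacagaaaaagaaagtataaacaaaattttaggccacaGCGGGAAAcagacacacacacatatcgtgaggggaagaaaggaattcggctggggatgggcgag

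The 4 matching stretches of G2/M genes, chosen in the same way with the CHR element in capitals, lie at chr11:99024190-99024309 (minus) for Top2a, chr19:37376262-37376381 (plus) for Kif11, chr9:122950961-122951080 (plus) for Kif15 and chr7:135716415-135716534 (minus) for Mki67. In Top2a, Kif11 and Kif15 the element nearest to the start begins 23, 19 and 19 bases before it. The stretch of Top2a also holds CCAAT boxes in both readings, ccaat and attgg.
Top2a: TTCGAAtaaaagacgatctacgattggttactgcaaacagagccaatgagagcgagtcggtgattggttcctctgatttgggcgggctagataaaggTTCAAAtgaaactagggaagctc
Kif11: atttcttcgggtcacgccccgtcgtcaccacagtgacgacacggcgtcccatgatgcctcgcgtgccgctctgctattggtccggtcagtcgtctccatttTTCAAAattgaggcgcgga
Kif15: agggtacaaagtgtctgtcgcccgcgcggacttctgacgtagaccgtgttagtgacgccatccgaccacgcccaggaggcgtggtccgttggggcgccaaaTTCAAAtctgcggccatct
Mki67: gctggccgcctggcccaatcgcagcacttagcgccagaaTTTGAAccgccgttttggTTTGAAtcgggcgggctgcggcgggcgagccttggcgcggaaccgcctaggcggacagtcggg

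Of 17046 barcodes, 14367 carry one of the 13 deposited cluster names, and these kept nuclei hold between 13227971 (w1) and 28595331 (w8) UMIs per library. Only 22 barcodes occur in more than 1 library. The RGL cluster holds 486, 461, 357 and 83 nuclei at w1, w2, w4 and w8, the NPC cluster 112, 75, 22 and 2, the first neuroblast cluster (NB1) 1492, 956, 130 and 0, and the OPC cluster 25, 36, 35 and 35. The names were set beside marker lists. Eomes, Elavl2, Neurog2 and Insm1 of 6 NPC markers were highest in NPC, Igfbpl1 in NB1 and Tfap2c in RGL. All 6 OPC markers were highest in OPC. Hopx, Thrsp and Notch2 of 6 RGL markers were highest in RGL, Lpar1 in the pericyte cluster, Sox5 in OPC and Hes5 in astrocytes. Of 6 neuroblast markers, Dcx and Sox11 were highest in NB1, and Calb2 and Tac2 in the other neuroblast cluster (NB2). Rgs6 was highest in the immature granule cell cluster GCimm1, and Neurod1 had no UMI. The authors named clusters with several of these, such as Eomes, Hopx, Notch2, Cspg4, Prkg2 and Dcx. For those genes the result restates the naming. Levels are given as UMIs per 1000000 UMIs of the same nuclei (CPM). The 5 endothelial markers added up to 190.4 CPM in the NPC nuclei of w1, against 12.3 and 26.2 CPM in those of w2 and w4, 9.56 to 21.3 CPM in RGL, 13.4 to 17.4 CPM in NB1 and 0 to 12.5 CPM in OPC, with Flt1 and Slco1a4 making up most of it and Cldn5 at 1.09 CPM in NPC. Top2a, Neil3, Cdk6, Lockd, Mcm6 and Pola1 served to name the NPC cluster, so their height there is part of its definition. The other way round, 21 of the 57 genes, Top2a and Neil3 among them, are not among the genes with deposited log2 values, and each had a UMI in under 1% of the kept nuclei. The authors computed the clusters from the most variable genes, and which members these include is not given in the sources used here.

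The cell-cycle genes were concentrated in the NPC cluster. There they made up 0.960% of all UMIs, against 0.120% in RGL, 0.110% in NB1, 0.118% in OPC and 0.0361% in the largest mature granule cell cluster (GCmat1). An NPC nucleus held a median of 29 member UMIs (interquartile range 14.5 to 61, lowest 1, highest 163), whereas an RGL, NB1 or immature granule cell nucleus held 4 and a mature one 3. Of the 57 genes, 54 had their highest level in NPC. The exceptions are Ccnd1, which was highest in OPC, Anln, which was level between mature oligodendrocytes and NPC, and Cdt1, which had no UMI in any kept nucleus. Among the 54, the intervals for counting error of NPC and the next cluster overlapped for several genes. These were Mcm3, Mcm4, Cdc6, Pcna, Cdk2, Cdk4, Ccna2, Ccnb1 and Cit. Cdk4 stood at 49.3 CPM in NPC and 43.8 in NB1, and Cit at 162 in NPC and 118 in OPC. The share of all genes that are highest in NPC is not given here. Cdt1, the licensing factor that loads the MCM helicase, lies within the span of the gene model Gm20388 on the same strand, and whether its reads were set aside on that account was not tested.

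**Figure D1:**
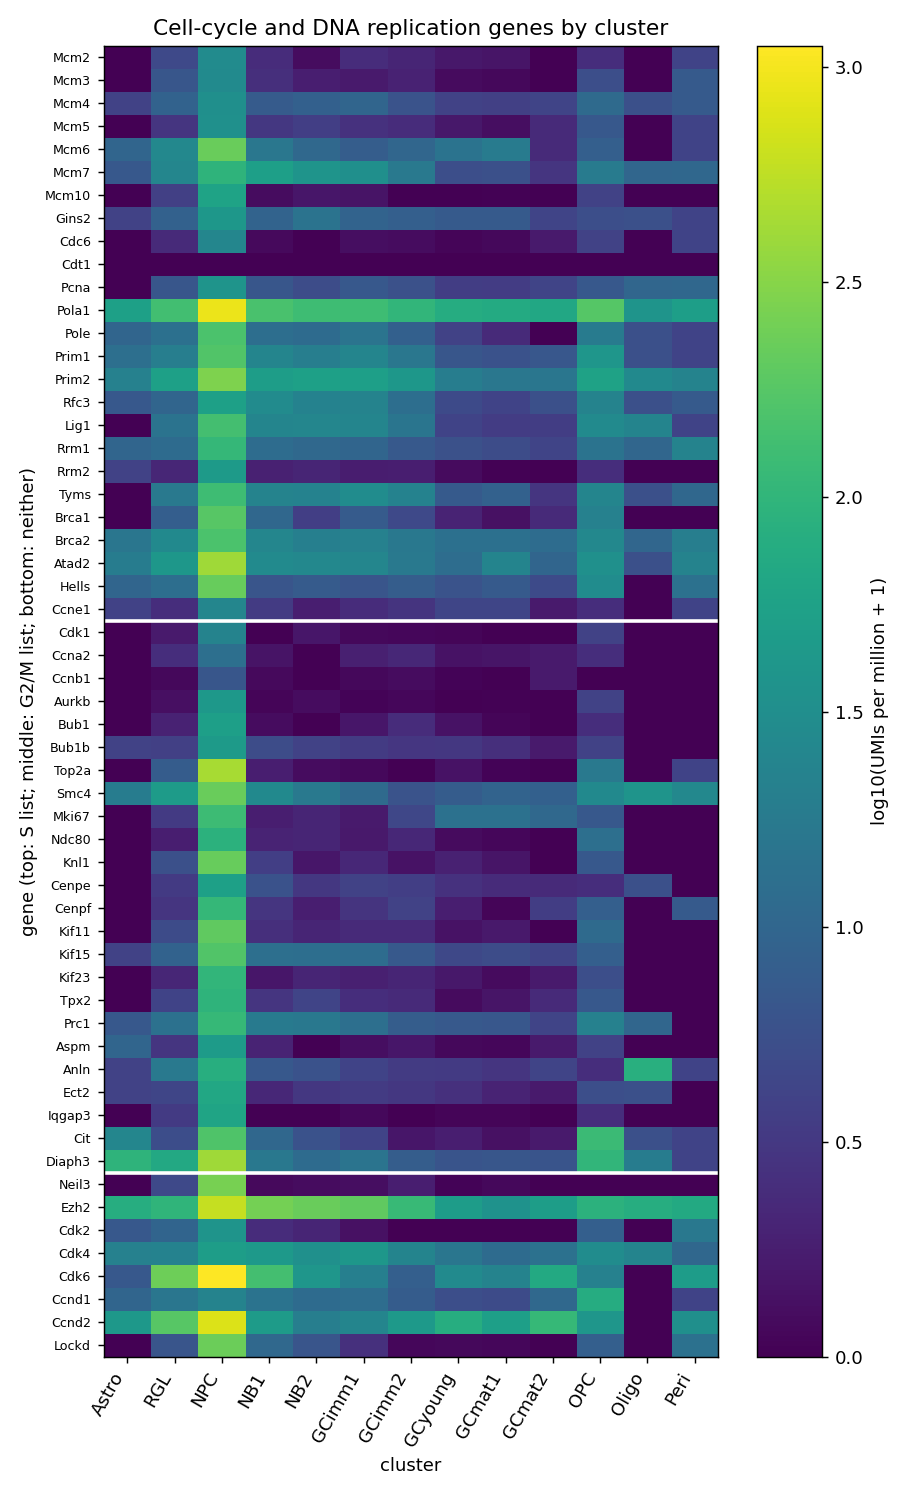
Level of each of the 57 genes (rows) in each of the 13 clusters (columns), pooled over libraries, as log10 of CPM plus 1. The NPC column is the brightest for 54 genes, and Cit and Diaph3 are also bright in OPC, Ezh2 in the neuroblast and immature granule cell clusters.

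Summed over the S list, the level was 3565 CPM in NPC (95% exact Poisson interval 3443 to 3689), 440 in RGL, 479 in NB1, 548 in OPC and 191 in GCmat1. For the G2/M list it was 2939 in NPC (2828 to 3052), 196 in RGL, 109 in NB1, 366 in OPC and 45.6 in GCmat1. With a single pool behind each week, the weeks were not tested against each other, and the intervals speak of counting error alone. In the w1, w2 and w4 libraries the NPC level of the S list was 3659, 3386 and 4299 CPM, and that of the G2/M list 2812, 2868 and 4522. Both lists were thus highest in the 22 NPC nuclei of w4, above the intervals of the other libraries. The 2 NPC nuclei of w8 held 3 S list and 5 G2/M list UMIs between them.

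**Figure D2:**
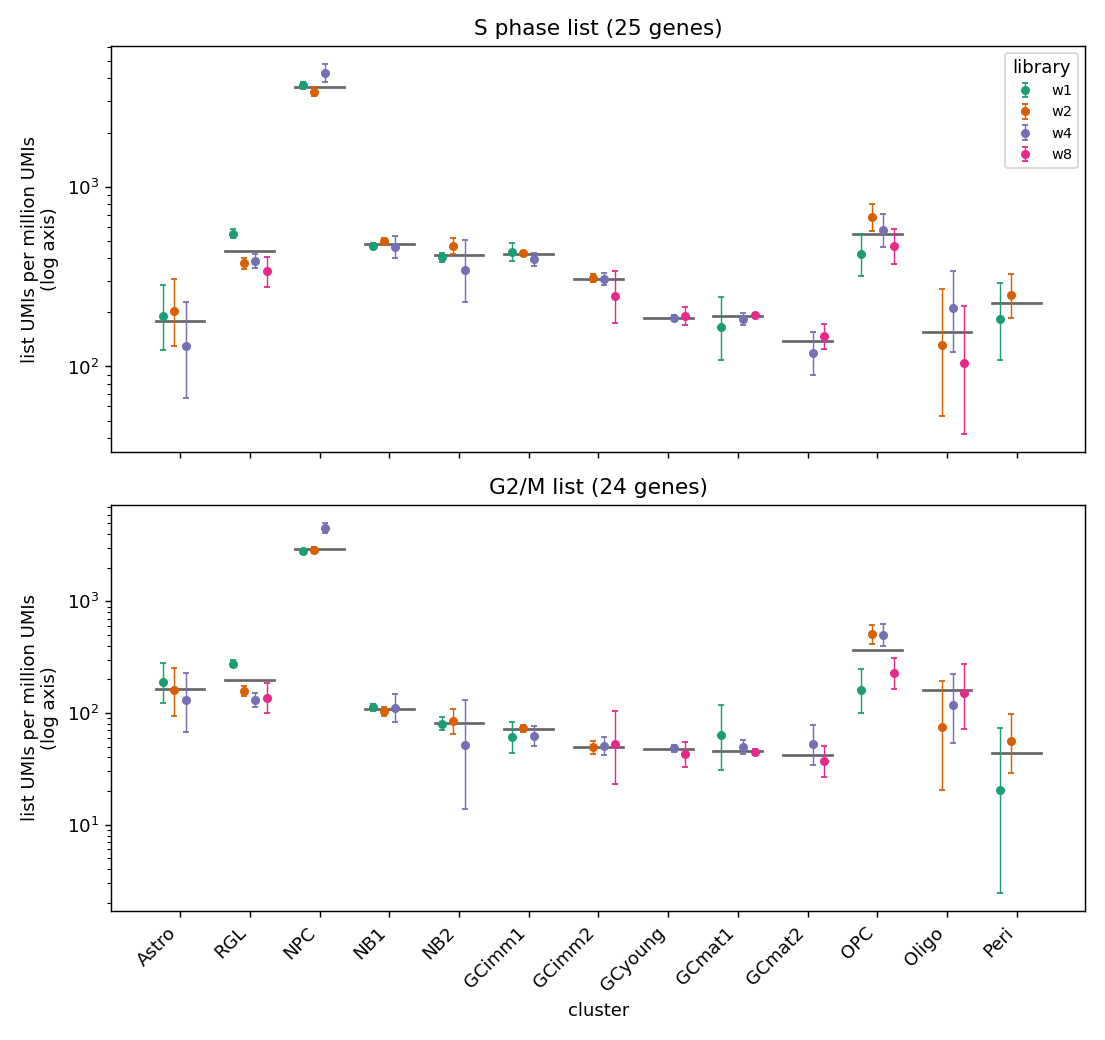
Level of the S list (top) and of the G2/M list (bottom) in CPM in each cluster, on log axes. Points are libraries with at least 10 nuclei in the cluster, with 95% Poisson intervals for counting error, and grey bars pool all nuclei. NPC stands highest in w1, w2 and w4 for both lists, and the G2/M list falls from 109 in NB1 to 45.6 in GCmat1.

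To compare neighbouring stages, UMIs were summed per library and cluster and 33 sums of at least 10 nuclei entered 1 fit in edgeR, with cluster and library as terms. To be called, a gene had to change by 1.5-fold or more with an adjusted p (Benjamini-Hochberg, over all 12212 genes tested) of 0.05 or less. As the clusters were drawn on the same nuclei, the p-values describe how clusters differ and do not show that stages exist. Of the 57 genes, 54 passed the filter on low counts. Cdt1, Ccna2 and Ccnb1 did not. Since 18 of the 54 passed through the NPC sums alone, these had to be high in NPC, and the 36 that pass without them are given beside the counts for NPC. These 18 are Mcm2, Mcm3, Mcm10, Cdc6, Pcna, Rrm2, Neil3, Ccne1, Cdk1, Aurkb, Bub1, Bub1b, Ndc80, Knl1, Cenpe, Kif23, Ect2 and Iqgap3, and their changes into and out of NPC are a description.

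From RGL to NPC, 53 of the 54 genes were called higher and none lower, where 14.8% of all genes tested were called higher and 16.9% lower. Without the genes that depend on NPC to pass, it was 35 of 36. Without w1, whose NPC nuclei held the endothelial UMIs, 48 were called higher and none lower. None was lower at an unadjusted p under 0.05 either, and DESeq2 called 50 higher and none lower. The median log2 fold change of the 54 genes was 3.49, against -0.04 over all genes tested. It was 2.86 for the 24 S phase genes, from 1.72 to 5.08, and 4.68 for the 22 G2/M genes, from 2.05 to 6.62. Over the genes that pass without NPC it was 2.85 for 17 S phase genes and 4.50 for 12 G2/M genes. All 53 called genes, of which 35 pass without NPC, were higher in NPC in each of the 3 libraries compared (w1, w2 and w4). The same share over all called genes was not counted. Ccnd1 alone was not called (log2 fold change 0.33 ± 0.41 SE, edgeR adjusted p = 0.596).

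From NPC to NB1, 51 of the 54 genes were called lower and none higher, where 15.8% of all genes tested were called lower and 15.5% higher, and it was 33 of the 36 that pass without NPC. None was higher at an unadjusted p under 0.05, DESeq2 called 50 lower and none higher, and without w1 the count was 47. The median was -3.74, with -3.12 for the S list and -5.57 for the G2/M list, against 0.05 over all genes, and -2.43 and -4.90 over the S phase and G2/M genes that pass without NPC. Both comparisons share the NPC sums, so they are no independent evidence of each other. Rfc3, Cdk4 and Ccnd1 were not called. In NB1 the median member of the G2/M list stood at 1.92% of its NPC level and the median member of the S list at 10.1%. These medians are a description, as they include the members that passed only through NPC or were not tested.

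**Figure D3:**
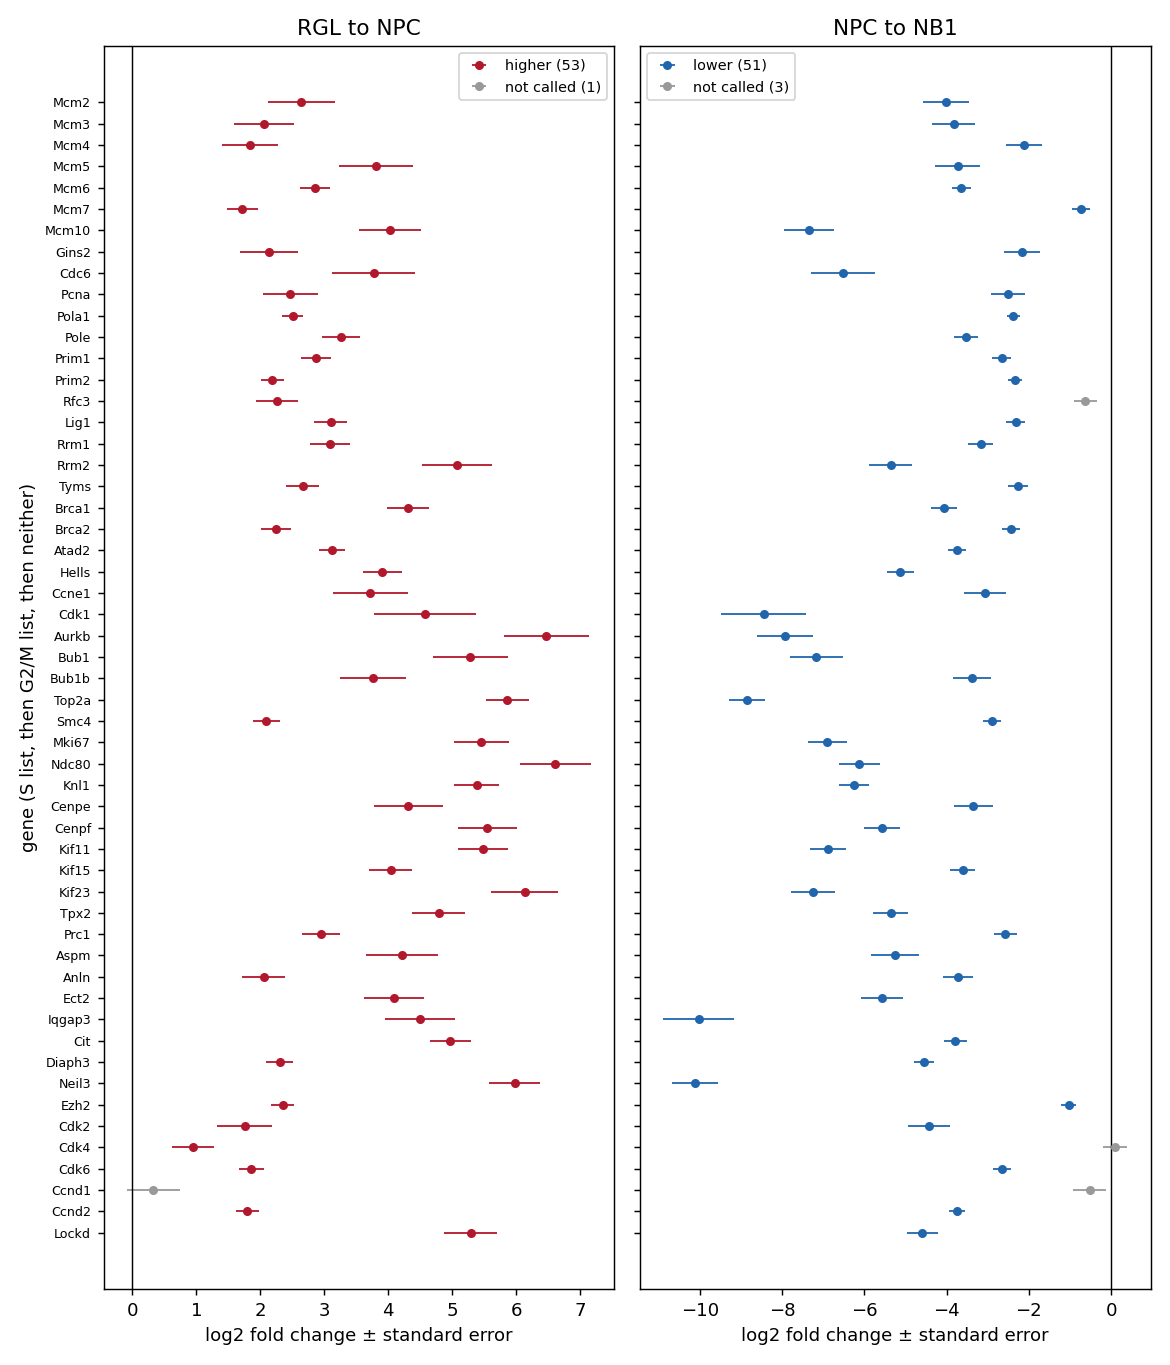
Log2 fold change with its standard error (edgeR) of the 54 genes tested, from RGL to NPC (left) and from NPC to NB1 (right). Coloured points are called (53 higher on the left, 51 lower on the right) and grey points are not (Ccnd1 on the left, Rfc3, Cdk4 and Ccnd1 on the right). Over the genes that pass the filter without NPC, the medians of the G2/M genes were 4.50 and -4.90 and those of the S phase genes 2.85 and -2.43.

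Among the licensing and helicase genes, Mcm6, a subunit of the MCM2-7 ring, had most UMIs. Its level in NPC was 216, 231 and 262 CPM at w1, w2 and w4, in RGL 30.0, 15.5, 36.1 and 19.1 at w1, w2, w4 and w8, and in NB1 13.5, 17.6 and 15.7 at w1, w2 and w4. The NPC values lie above every RGL and NB1 value (log2 fold change -3.64 ± 0.24 SE from NPC to NB1, edgeR adjusted p = 5.06e-18). Mcm7, another subunit of the ring, behaved differently after the NPC stage. It stood at 86.2, 105 and 131 CPM in NPC, at 23.9, 31.5, 16.9 and 6.37 in RGL, and at 49.3, 55.8 and 35.8 in NB1. The groups do not overlap, but the fall into NB1 was small (-0.73 ± 0.22 SE, edgeR adjusted p = 0.00848) and went uncalled when w1, w2 or w4 was left out. Its 7.84 kb span holds the microRNA genes Mir25, Mir93 and Mir106b, and transcripts of these and of Mcm7 cannot be told apart in the counts. The other ring subunits Mcm2, Mcm3, Mcm4 and Mcm5, at 28.5, 27.4, 31.8 and 32.8 CPM in NPC, had few counts each. Gins2, of the GINS part of the active helicase, stood at 40.5 CPM in NPC, 7.87 in RGL and 8.44 in NB1. Mcm10 and Cdc6, which act at the loading and firing of origins, fell to 3 and 2 UMIs in the 2578 NB1 nuclei from 53 and 22 in the NPC sums compared.

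Of the replication fork genes Pola1, the catalytic subunit of DNA polymerase alpha, had most UMIs, over a span of 327 kb, and per length it lay below Prim1, Pcna, Rfc3, Lig1 and Pole. Pola1 stood at 999.98, 792 and 996 CPM in NPC at w1, w2 and w4, at 159, 96.8, 134 and 147 in RGL, and at 154, 141 and 155 in NB1. It stayed detectable everywhere: at 2000 UMIs per nucleus 12.8% of GCmat1 nuclei and 6.67% of mature oligodendrocytes had a Pola1 UMI, against 72.8% of NPC nuclei. Prim2, the regulatory subunit of primase, with a span of 216 kb, stood at 323, 243 and 315 CPM in NPC, 65.2, 44.6, 47.1 and 44.6 in RGL and 48.2, 47.0 and 58.3 in NB1. In both genes the NPC libraries lie above all others without overlap. Rfc3, a subunit of the clamp loader, rose from RGL to NPC (2.26 ± 0.33 SE, edgeR adjusted p = 1.38e-07) but was not called on the way to NB1 (-0.62 ± 0.28 SE, edgeR adjusted p = 0.078). Its NPC levels of 52.1, 61.6 and 26.2 CPM overlap those of NB1 (25.5, 33.3 and 33.6), the w4 value resting on 2 UMIs. Pole, Prim1 and Lig1, which code for DNA polymerase epsilon, the catalytic subunit of primase and DNA ligase 1, fell by 3.53, 2.66 and 2.32 on the log2 scale into NB1. Pcna, the sliding clamp, stood at 37.2 CPM in NPC, 5.57 in RGL and 5.51 in NB1.

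Nucleotide supply genes rose together in the NPC cluster. Tyms, thymidylate synthase, stood at 130, 108 and 170 CPM in NPC at w1, w2 and w4, at 23.5, 13.2, 8.83 and 9.56 in RGL and at 21.1, 25.0 and 17.9 in NB1. Rrm1, the large subunit of ribonucleotide reductase, stood at 98.2, 92.4 and 223 in NPC, at 12.6, 11.7, 5.15 and 9.56 in RGL and at 11.6, 9.78 and 8.96 in NB1. Neither gene overlaps between NPC and its neighbours. Rrm2, the small and cell-cycle-limited subunit of the same enzyme, was the most restricted of these genes, with 7 UMIs in the RGL sums, 41 in NPC and 10 in NB1. It passed the filter only through NPC, so it had to be high there.

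In the group of repair and chromatin genes, Ezh2, the methyltransferase of Polycomb repressive complex 2, was the one that lasted. Its level was 599, 613 and 721 CPM in NPC at w1, w2 and w4, 252, 270 and 251 in NB1, and 109, 94.9, 81.7 and 105 in RGL. NB1 thus lay between NPC and RGL in every library (-1.03 ± 0.18 SE from NPC to NB1, edgeR adjusted p = 5.33e-06). Atad2, a chromatin ATPase of S phase, stood at 449, 354 and 524 in NPC, at 25.5, 31.8 and 20.2 in NB1 and at 55.7, 35.7, 25.0 and 28.7 in RGL. Neil3, a DNA glycosylase, had 242 UMIs over all NPC nuclei, 23 in RGL and 2 in NB1. Hells, a chromatin remodeller, and Brca1, of homologous recombination, fell by 5.12 and 4.07 on the log2 scale into NB1, and Brca2, which acts beside Brca1, by 2.43.

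The cyclins and kinases of G1 were the least uniform group. Cdk6 had the highest count of all members in NPC, with 1401, 795 and 813 CPM at w1, w2 and w4. It stood at 242, 221, 267 and 159 in RGL and at 146, 117 and 166 in NB1, so NPC lay above both (1.86 ± 0.19 SE from RGL, edgeR adjusted p = 2.07e-11). Ccnd2, cyclin D2, was at 834, 739 and 550 in NPC and at 167, 205, 188 and 79.7 in RGL, and it dropped to 46.2, 45.5 and 56.0 in NB1. Cdk6 and Ccnd2 were also the members with most UMIs in RGL. Cdk4, the other partner of D cyclins, stood at 60.1, 30.8 and 65.5 in NPC and at 37.6, 51.1 and 65.0 in NB1, which overlap (0.10 ± 0.30 SE, edgeR adjusted p = 0.842). It was called higher than in RGL (0.95 ± 0.33 SE, edgeR adjusted p = 0.0211), a call that is lost without w1 or without w4.

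Ccnd1, cyclin D1, was highest in OPC. It had no UMI in the 45 mature oligodendrocytes, which are too few to set this 0 below the pooled level of RGL or NB1. In OPC it stood at 99.7, 58.4, 56.4 and 100.3 CPM at w1, w2, w4 and w8, whereas it was at 16.0, 33.9 and 13.1 in NPC and at 13.0, 18.3, 13.3 and 6.37 in RGL. All 4 OPC values lie above all NPC and RGL values. The log2 fold change was 2.46 ± 0.32 SE from RGL to OPC (edgeR adjusted p = 8.52e-09) and -2.14 ± 0.42 SE from OPC to NPC (edgeR adjusted p = 4.96e-05). Cdk6 and Ccnd2 ran the other way, called lower in OPC than in RGL by 3.34 and 2.01 on the log2 scale. Ccne1 and Cdk2, cyclin E1 and its kinase, were at 24.1 and 37.2 CPM in NPC, against 1.48 and 8.52 in RGL.

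The mitotic kinases and cyclins were thinly counted even in NPC. Bub1, a kinase of the spindle checkpoint, stood at 54.1, 46.2 and 65.5 CPM in NPC at w1, w2 and w4, and had 6 UMIs in all RGL nuclei and 3 in all NB1 nuclei. Bub1b, which codes for the checkpoint protein BubR1, stood at 48.1, 30.8 and 91.7 in NPC, at 4.35, 0.470, 4.42 and 0 in RGL and at 5.97, 1.22 and 4.48 in NB1. In both genes NPC is apart from the other groups. Like Cdk1 and Aurkb below, however, both passed the filter only through NPC, so they had to be high there. Cdk1, the master kinase of mitosis, had 20 UMIs in the NPC sums and 0 in NB1. With 3 counts over all NB1 nuclei standing for the 0, its level was 80.7-fold higher in NPC. This makes no allowance for counting error in the 20. Aurkb, the kinase of the chromosomal passenger complex, had 38 UMIs in the NPC sums, 2 in RGL and 1 in NB1. Ccna2 and Ccnb1, cyclins A2 and B1, had 11 and 5 UMIs in the NPC nuclei of w1, w2 and w4 and were not tested.

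Among the chromosome and kinetochore genes, Top2a, the topoisomerase that untangles chromosomes, stood at 405, 471 and 734 CPM in NPC at w1, w2 and w4. In RGL it was at 14.4, 2.82, 1.47 and 0 at w1, w2, w4 and w8, and in NB1 at 0.314, 1.71 and 0. The lowest NPC library is many times above the highest of the others (log2 fold change 5.87 ± 0.34 SE from RGL, edgeR adjusted p = 6.78e-19, and -8.85 ± 0.44 SE into NB1, edgeR adjusted p = 2.6e-21). Smc4, a condensin subunit, was broader, with 216, 228 and 315 in NPC, 41.8, 51.2, 44.9 and 41.4 in RGL and 27.0, 26.2 and 24.6 in NB1. Its span includes Mir15b and Mir16-2. Cenpf, of the kinetochore, rose by 5.55 on the log2 scale from RGL to NPC. Ndc80, Knl1 and Cenpe, also of the kinetochore, had 83, 201 and 48 UMIs over all NPC nuclei and 5, 28 and 14 over all RGL nuclei.

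Mki67, the gene of the proliferation antigen Ki-67, stood at 120.24, 120.15 and 144 CPM in NPC at w1, w2 and w4, and at 0.786, 0.734 and 2.24 in NB1. Unlike Top2a it was present again in older neurons: 12.9 and 13.2 in the young granule cell cluster (GCyoung) at w4 and w8, and 15.5 and 12.2 in GCmat1 at w4 and w8, where 12.9% and 9.33% of nuclei had a UMI. It was called higher from GCimm1 to GCimm2 (2.40 ± 0.66 SE, edgeR adjusted p = 0.00877) and from GCimm2 to GCyoung (1.90 ± 0.49 SE, edgeR adjusted p = 0.00243), though DESeq2 called no member higher in the latter comparison. The pooled Top2a level in GCmat1 was 0.0685. Gm45240 lies on the opposite strand within the span of Mki67, and its part in these counts was not tested.

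Spindle genes were low outside NPC. Kif11, the motor that pushes the spindle poles apart, stood at 182, 206 and 341 CPM in NPC at w1, w2 and w4, at 6.52, 4.23, 0 and 0 in RGL and at 1.89, 0.978 and 2.24 in NB1. Kif15, a motor that backs it up, stood at 172, 142 and 223 in NPC, at 13.5, 7.52, 2.21 and 0 in RGL and at 10.4, 14.7 and 6.72 in NB1. Neither overlaps between NPC and the others. Kif23, Tpx2, Prc1 and Aspm, of the central spindle and the spindle poles, fell by 7.25, 5.36, 2.57 and 5.25 on the log2 scale from NPC to NB1. Of these, Kif23 passed the filter only through NPC.

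Among the cytokinesis genes, Cit and Diaph3 were also high in OPC. Diaph3, a formin, stood at 469, 336 and 446 CPM in NPC at w1, w2 and w4, at 104, 42.3, 46.4 and 73.3 in RGL, at 18.1, 13.0 and 6.72 in NB1 and at 38.3, 136, 144 and 66.8 in OPC. Cit, which codes for citron kinase of the cleavage furrow and for a shorter product of the same gene without the kinase domain, stood at 150, 163 and 197 in NPC and at 4.78, 5.64, 2.21 and 0 in RGL. In OPC it stood at 107, 146, 125 and 89.1 CPM at w1, w2, w4 and w8, a range just below the CPM of NPC. A Cit UMI was found in 44.0%, 41.7%, 45.7% and 31.4% of OPC nuclei at these weeks, and in 66 of all 211 NPC nuclei. With equal numbers of UMIs drawn per nucleus, the share was 19.8% in OPC and 20.4% in NPC. Cit was called higher in OPC than in RGL (5.00 ± 0.35 SE, edgeR adjusted p = 8.7e-18) and was not called between OPC and NPC. For the latter the fit, which scales the library sizes by TMM factors, gave a change of -0.02 ± 0.27 SE (edgeR adjusted p = 0.969), although the CPM were higher in NPC, 162 against 118 over all nuclei. The counts do not tell the products of Cit apart.

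Anln, anillin, stood at 64.1, 92.4 and 144 CPM in NPC at w1, w2 and w4, and at 0 in the OPC nuclei of w1, w2 and w8. Pooled over the 45 mature oligodendrocytes it was at 81.9, whose interval overlaps that of NPC, and at 2000 UMIs per nucleus 13.3% of them had an Anln UMI against 10.2% of NPC nuclei. Iqgap3, a scaffold protein, had 54 UMIs in the NPC sums and 0 in NB1. By the same 3 counts this is 218-fold higher in NPC, without allowance for counting error in the 54. The call of Iqgap3 was lost with DESeq2. Ect2, the exchange factor that triggers the contractile ring, stood lower in NB1 by 5.58 on the log2 scale. Iqgap3 and Ect2 passed the filter only through NPC, so they had to be high there.

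Lockd, a noncoding RNA transcribed downstream of Cdkn1b, moved with the coding genes. It stood at 212, 253 and 315 CPM in NPC at w1, w2 and w4, at 13.9, 0.470, 0 and 0 in RGL and at 11.3, 7.34 and 6.72 in NB1. Nearly all of its RGL counts, 32 of 33, came from w1.

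As introns are counted, the levels of different genes are also given per length. Whether this makes genes comparable was not tested. Over the 56 genes with an NPC UMI, the NPC level rose with the span of the gene (Spearman rho = 0.67 across genes, which share the same nuclei and are not replicates), and the level per 10 kb fell with it (rho = -0.31). Per 10 kb of span, the highest NPC levels were those of Ccnd2 (283 CPM), Top2a (144), Mcm7 (121), Cdk4 (112) and Prim1 (110). Cdk6 dropped to 58.9 and Pola1 to 27.9 on that scale, and Ccnb1, at 6.91, was the lowest gene with a count.

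Nucleus by nucleus, the lists were compared after drawing 2000 UMIs from each nucleus, which left out the 141 kept nuclei with fewer. At least 3 S list UMIs were found in 77.7% of NPC nuclei, 6.05% of RGL, 8.49% of NB1 and 13.0% of OPC, and in 0.983% of GCmat1. At least 3 G2/M list UMIs were found in 41.7% of NPC nuclei, 2.33% of RGL, 0.322% of NB1, 3.82% of OPC and 0.0298% of GCmat1. Each list thus marked many NPC nuclei. The S list share of NB1 had similar values beside it, 6.81% in NB2 and 6.74% in GCimm1. Without thinning, the shares in NPC were 85.8% and 54.0% and in RGL 21.8% and 6.85%. At 2000 drawn UMIs the members Pola1, Lig1, Ezh2, Ccnd2, Smc4 and Anln had a UMI in over 5% of GCmat1 nuclei or of mature oligodendrocytes.

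**Figure D4:**
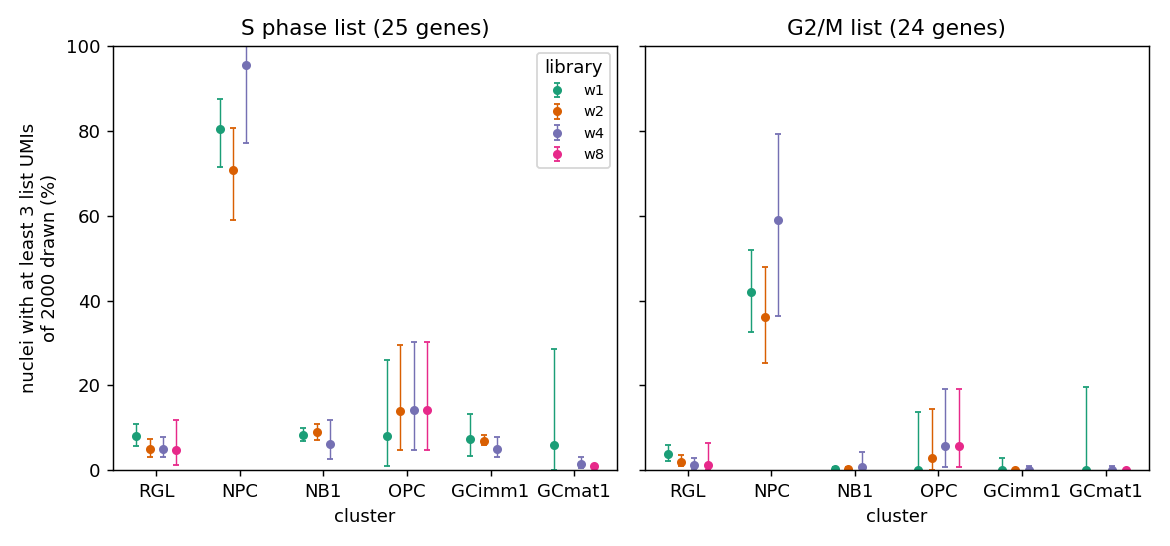
Percent of nuclei with at least 3 UMIs of the S list (left) and of the G2/M list (right) among 2000 UMIs drawn per nucleus, by cluster and library with at least 10 nuclei, with exact 95% binomial intervals for counting error. NPC stands apart in w1, w2 and w4, and the G2/M share in NB1 is 0.322% over all libraries.

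Within the 206 NPC nuclei deep enough, 82 passed the mark for both lists, 78 for the S list only, 4 for the G2/M list only and 42 for neither. Nearly every nucleus with G2/M transcripts, 82 of 86, therefore also held S phase transcripts. The nuclei with neither were shallower before thinning, with a median of 3418 UMIs against 4031 for the S list only and 4625 for both. The G2/M UMIs were also less evenly spread: the top 10% of NPC nuclei held 47.1% of them and 27.6% of the S list UMIs.

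In RGL, 100 of 1372 nuclei passed for either list, 68 for S only, 17 for G2/M only and 15 for both. Of these 15, 12 came from w1, and their median pseudo-time was 2.22, against 1.10 for RGL nuclei with neither list and 8.07 for NPC. The share of RGL nuclei with S list UMIs was 8.07% at w1, 4.99% at w2, 5.04% at w4 and 4.82% at w8, and that with G2/M UMIs 3.82%, 1.95%, 1.12% and 1.20%. The level of the G2/M list in RGL was 277 CPM at w1 (interval 256 to 299) and between 132 and 158 at the later weeks. The top 10% of RGL nuclei, 139 of them, held 47.1% of the S list UMIs and 55.1% of the G2/M list UMIs. In NB1 the top 10% of nuclei held 30.0% and 51.2%, so the G2/M value of RGL was close to that of NB1. A single library per week stands behind these values.

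The S list made up 54.8% of the UMIs of both lists in NPC (95% exact binomial interval 53.5 to 56.1), 69.2% in RGL (67.7 to 70.6), 59.97% in OPC (56.0 to 63.9) and 81.4% in NB1 (80.5 to 82.4). These shares pool the UMIs of all nuclei, and the intervals take each UMI as independent. As a mean over nuclei the NPC share was higher and lay inside the interval given for RGL. By library it was 56.6%, 54.1% and 48.7% in NPC at w1, w2 and w4, and 80.6%, 82.7% and 80.5% in NB1. In RGL it was 66.4%, 70.3%, 74.5% and 71.1% at w1, w2, w4 and w8. With a second pair of lists of other S and G2/M genes the share was 55.5% in NPC, 62.1% in RGL and 63.4% in OPC, but 59.0% in NB1. A share as high as that of NB1 was also found in NB2 (83.7%), GCimm1 (85.6%) and GCmat1 (80.8%), and with the second pair GCmat1 stood at 69.7%.

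Along the pseudo-time of the authors, which orders nuclei from RGL to mature granule cells, the 211 NPC nuclei were cut into 7 bins. The S list went from 2742 and 2682 CPM in the earliest bins to 3597 in the third and 4542, 4011 and 4721 in the fourth to sixth and was at 2376 in the seventh. The G2/M list ran alongside, from 2385 and 1631 through 3477, 4263, 3171 and 3931 to 1391. Over the same bins Eomes, of intermediate progenitors, went from 92.7 to 366 CPM and Dcx, of neuroblasts, from 26.5 to 382. Ccnd2 was at 954 in the first bin, highest at 1178 in the fourth and at 431 in the seventh. The S list was highest in the sixth bin and the G2/M list in the fourth, and for either list the intervals of these bins overlap. The bins draw on different libraries, as 23 of the 30 nuclei of the first come from w1, and pseudo-time was itself computed from expression.

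**Figure D5:**
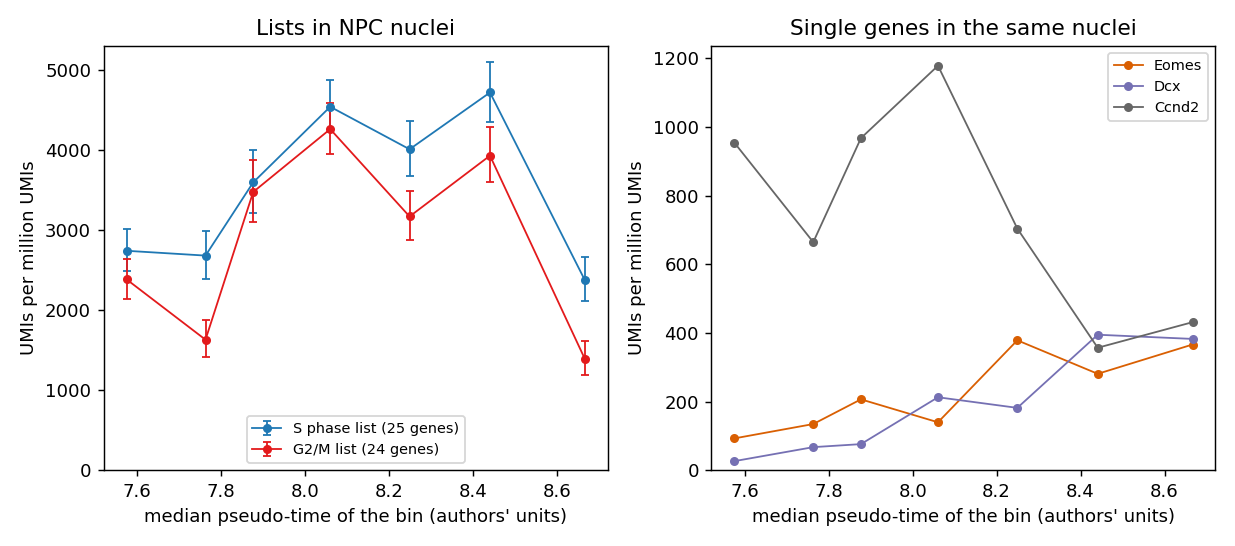
CPM in 7 bins of NPC nuclei ordered by the pseudo-time of the authors, for the 2 lists with 95% Poisson intervals (left) and for 3 single genes (right). Both lists are higher in the third to sixth bins than in the others, and Dcx is at 26.5 in the first bin and 382 in the seventh.

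From OPC to NPC, 46 of the 54 genes were called higher and 1, Ccnd1, lower, where 13.8% and 14% of all genes were called higher and lower, and the median log2 fold change was 2.79 against 0.13 over all genes. Over the genes that pass the filter without NPC it was 30 of 36 higher and 1 lower, with a median of 2.32. Those not called were Mcm4, Cdc6, Rfc3, Cdk2, Cdk4, Cdk1 and Cit. From RGL to OPC 9 genes were called higher (Prim1, Rfc3, Lig1, Brca1, Hells, Ccnd1, Ndc80, Cit and Diaph3) and 4 lower (Mcm6, Cdk6, Ccnd2 and Anln), where 14.2% and 15.2% of all genes were called higher and lower. Of these, 3 of the 9 and all 4 had the same direction in each library compared. Without w1, w2 or w4 these counts became 18 and 2, 3 and 4, and 4 and 3. The OPC counts rest on few nuclei: the top 10% of them, 14 nuclei, held 56.5% of the S list UMIs and 58.3% of the G2/M list UMIs, shares not far above those of RGL. By week the G2/M list stood at 161, 511, 501 and 228 CPM in OPC.

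After NB1 the counts of members called are given with the share of all genes called in the same direction as background, and nothing particular to the members is read from them. From NB1 to GCimm1, 6 of 54 were called lower (Mcm6, Cdk6, Ccnd2, Smc4, Cit and Lockd; background 5.1%) and none higher (background 8.15%), with 1 higher at an unadjusted p under 0.05 in edgeR and none in DESeq2. From GCimm1 to GCimm2, 5 were called lower (background 3.28%) and 2, Ccnd2 and Mki67, higher (6.86%). Without w2 these became 1 higher and none lower, without w4 they became 2 and 2, and from NB1 to GCimm1 3 were called lower without w2. From GCimm2 to GCyoung, 8 were called lower (10.6%), among them the replication genes Mcm7, Prim1, Prim2, Rfc3, Lig1 and Tyms, and 3, Cdk6, Ccnd2 and Mki67, higher (9.59%). Of these, 6 of the 8 lower and 1 of the 3 higher had the same direction in both libraries compared. Lig1 fell most of the replication genes (-1.78 ± 0.33 SE, edgeR adjusted p = 2.68e-05). No member was called from GCyoung to GCmat1 in edgeR (background 1.9% higher and 2.55% lower) or in DESeq2, with 1 higher and 4 lower at an unadjusted p under 0.05. Without w4 the GCimm2 to GCyoung calls became 2 higher and none lower, and DESeq2 called 7 lower and none higher.

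Ccnd2 stood at 765 CPM in NPC, 46.3 in NB1, 23.7 in GCimm1, 78.1 in GCyoung and 52.3 in GCmat1. Its rise from GCimm2 to GCyoung was not called in DESeq2. Its change from GCyoung to GCmat1 was called in neither edgeR nor DESeq2. In GCyoung it stood at 78.7 and 71.1 at w4 and w8, with a UMI in 41.6% and 37.8% of nuclei. From astrocytes to RGL, 4 genes were called higher (Pola1, Tyms, Cdk6 and Ccnd2; background 5.33%) and Cit lower (5.58%). Cdk6 led with 5.22 ± 0.70 SE on the log2 scale (edgeR adjusted p = 8.42e-08), from 2 UMIs in the 67 astrocytes.

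Further lists of the same pathway were run in the same fit. Over all genes tested 14.8% were called higher and 16.9% lower from RGL to NPC, and 15.8% lower from NPC to NB1. Of 39 other S phase genes, all 39 were called higher from RGL to NPC and 38 lower from NPC to NB1 (30 and 29 of the 30 that pass the filter without NPC), the largest being E2f8, Clspn and Uhrf1, a repressor of the E2F family, a checkpoint adaptor and a factor that maintains DNA methylation. Of 59 other G2/M genes 50 could be tested, and all 50 were called higher and 49 lower (15 and 14 of the 15 that pass without NPC). The 9 that could not be tested include Plk1, Cdc20, Ube2c and Ccnb2, with 5, 7, 6 and 11 UMIs in the NPC sums. Of 21 other licensing factors tested, 15 were called higher and 14 lower (12 and 11 of 18 without NPC), with the origin recognition genes Orc3 and Orc4 not called in either comparison.

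Of 26 inhibitors and regulators tested, 14 were called higher from RGL to NPC and 2 lower, and 16 were called lower from NPC to NB1. Among the 22 that pass without NPC it was 10 higher and 2 lower, and 12 lower. The largest increases were those of Foxm1 (6.29 ± 0.79 SE), a driver of mitotic genes, E2f7 (5.38 ± 0.48 SE), a repressor of E2F targets, and Cdkn2b (4.76 ± 0.77 SE), an inhibitor of Cdk4 and Cdk6, all of which, like E2f8, passed the filter only through NPC. Ccnd3, cyclin D3, and Cdk5, a kinase of postmitotic neurons, were the genes called lower, by 1.53 and 0.87 on the log2 scale. Cdkn1b, the inhibitor p27, was not called in either comparison (log2 fold change 0.06 from RGL to NPC and -0.13 from NPC to NB1). Over the 3 D cyclins, Ccnd2 was thus called higher in NPC, Ccnd3 lower and Ccnd1 was not called. These further lists were chosen with the behaviour of the pathway known.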

How the data were processed

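The authors sorted tagged nuclei, made 10x libraries and counted UMIs with STARsolo 2.7.4a on mm10 (GRCm38; version and build from the notes of the submitters) over exons and introns, leaving out multi-mapped reads. The deposited counts are whole UMIs per gene and barcode. A second deposited table holds log2 expression (scran size factors, 1 added) of genes seen in at least 1% of nuclei with the cluster and pseudo-time score of each nucleus, given by the authors after removal of doublets, low-quality nuclei and a group of w4 nuclei. From it only the labels and pseudo-time were used.

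Levels are raw UMIs per 1000000 UMIs (CPM) of the same nuclei. Strand handling in counting is not given in the sources used here. Tests were edgeR 4.0.16 (filterByExpr, TMM, quasi-likelihood, 19 residual degrees of freedom, common dispersion 0.0138), with DESeq2 1.42.0 as an alternative. Weeks were prepared in pairs per day, and which shared a day is not given in the sources used here. They are single pools, so p-values measure the spread between library sums, not animals. In simulated RGL and NPC sums with 10067 genes, 50 of 100 genes changed 2-fold and 70 of 100 changed 4-fold were recovered, with 2 false calls. The simulation used the common dispersion for every gene and no library effect, and changed only well-counted genes. Its rates therefore do not carry over to thinly counted members such as Cdk1 and Aurkb. The members, lists and tests were chosen with earlier results of these data known. Every member may be named. Values per library are given for the 2 members of each role with most NPC UMIs and for members that depart from the common pattern. Gene spans come from GENCODE M21 and promoters from RefSeq. The gene whose promoter drives Cre is not reported here.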

Additional observations from a re-analysis of the deposited data

Results flagged for a closer look

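The 2679 barcodes without a cluster name, which no comparison above uses, also held nuclei with cell-cycle transcripts. Of these, 2565 had the 2000 UMIs to draw. Among the 2565, 3.74% had at least 3 S list UMIs and 1.40% at least 3 G2/M list UMIs, above the 95% upper bounds for GCmat1. For the S list this does not set them apart from other neuronal clusters, with 6.81% in NB2, 6.74% in GCimm1 and 3.27% in GCimm2. The shares were highest in w1, with 11.6% for the S list and 6.11% for the G2/M list, followed by w2 with 8.38% and 2.51%. In w1 only 311 of the 410 barcodes were deep enough to count. In w4, where most such barcodes lie, the shares were 1.60% and 0.491%, and in w8 they were 1.49% and 0 of 268 barcodes (exact 95% upper bound 1.37%). These barcodes include doublets and low-quality nuclei by the account of the authors, and whether they hold dividing nuclei was not tested.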

How the results depend on the processing

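The calls from RGL to NPC ranged from 44 (nuclei thinned to 2000 UMIs) to 55 (no filter on low counts) and those from NPC to NB1 from 42 to 53 over the same alternatives, all in the reported direction. Among the log2 changes of single members in these 2 comparisons under the alternatives, 1351 kept their side of the threshold, and no called member changed direction. Another 12 kept the direction and lost the call, and 1 gained it (Rfc3 from NPC to NB1 with RLE factors, -0.73). Members not called did change sign. Leaving out a library gave Ccnd1 from RGL to NPC a lowest value of -0.06, and Cdk4 from NPC to NB1 ran from -0.31 to 0.79. Members that fell under the filter on low counts in an alternative, as some did with thinning or without w1 or w2, have no value there and are in none of these numbers. The calls lost by members still tested are Mcm10, Bub1 and Iqgap3 from RGL to NPC and Iqgap3 from NPC to NB1 with DESeq2, Cdk4 (without w1, without w4 or thinned) and Cdk2 (without w1) from RGL to NPC, and Mcm7 from NPC to NB1 (without w1, w2 or w4, or thinned). The causes were not tested.

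Counts of members called moved by over 1.5 times in the smaller comparisons. Thinning gave 3 calls in place of 5 from astrocytes to RGL. From GCimm1 to GCimm2, with 7, DESeq2 gave 3, and a fold change of 2, no library term and thinning gave 4 each. From GCimm2 to GCyoung, with 11, DESeq2 gave 7. Leaving out 1 library at a time gave 2 to 5 from astrocytes to RGL, 3 to 6 from NB1 to GCimm1, 1 to 7 from GCimm1 to GCimm2 (without w2 no lower call was left), 2 to 12 from GCimm2 to GCyoung, 0 to 1 from GCyoung to GCmat1 and 7 to 20 from RGL to OPC. The causes were not tested.

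The share of the S list in the UMIs of both lists was 79.98% in NB1, 48.9% in NPC and 50.6% in OPC without the members of high background, 58.98% in NB1 and 62.1% in RGL with the other S and G2/M genes, and 68.7% in NPC as a mean over nuclei. Leaving out a library gave 80.6% to 82.5% in NB1, 52.7% to 55.6% in NPC and 68.02% to 71.9% in RGL.

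The percent of nuclei past the mark depends on depth and mark by construction. For the S list, 1000 drawn UMIs gave 2.96% in RGL, 57.3% in NPC, 1.44% in NB1 and 4.58% in OPC. With 3000 it was 12.2% in RGL, 85.03% in NPC and 18.4% in NB1, and without thinning 21.8%, 85.8%, 32.1% and, in OPC, 27.5%. A mark of 2 UMIs gave 17.1% in RGL, 83.98% in NPC and 24.7% in NB1, one of 5 UMIs 2.26%, 64.6%, 0.845% and, in OPC, 5.34%, and the other S genes 11.8% in RGL and 18.7% in NB1. For the G2/M list, 1000 drawn UMIs gave 0.505% in RGL, 34.1% in NPC and 0.116% in NB1, 3000 gave 3.35%, 51.5% and 1.04%, and no thinning 6.85%, 54.03%, 2.60% and, in OPC, 16.8%. A mark of 2 UMIs gave 6.63% in RGL, 50.0% in NPC, 2.94% in NB1 and 9.92% in OPC, one of 5 UMIs 0.802% in RGL and 0% in NB1, and the other G2/M genes 4.45% in RGL, 60.2% in NPC and 9.21% in NB1. Leaving out a library gave 1.55% to 2.76% for the G2/M list in RGL.

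No paired analysis was possible between the weeks, which are the groups of the labels, because each is 1 library. The comparisons of clusters are themselves paired by library through the library term, and without that term the counts were 53 from RGL to NPC and 51 from NPC to NB1. The fit of RGL, NPC, NB1 and OPC alone was run only for comparisons among these. Each week is a single library, so no change between weeks can be told apart from a difference between pools. NPC in w4 and OPC in every week rest on few nuclei, and genes such as Cdk1, Ccna2 and Ccnb1 had too few UMIs for a difference to be detectable at this depth outside NPC.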
